A study of Mus musculus with 2 samples.

Results

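The 7 genes described here make up the machinery by which a cell shows peptides on MHC class II molecules: the chain genes H2-Aa, H2-Ab1 and H2-Eb1, the invariant chain gene Cd74, the peptide exchange genes H2-DMa and H2-DMb1, and the transactivator gene Ciita. They were chosen by symbol and by role, and all 7 were found among the 32285 genes measured. Their transcripts were followed through 1 droplet library of single cells. Per the labels, it was made from colony-forming unit macrophage (CFU-M) colonies that grew over 14 days in methylcellulose from the aortas of 2 C57BL/6J male mice aged 12 weeks. The aortas had been stripped of surrounding fat and digested with Liberase, and viable colony cells were sorted by exclusion of DAPI and tagged by MULTI-seq, a method that marks each cell suspension with its own DNA oligonucleotide. No genotype or treatment sets groups of cells apart in the labels. The study asked whether the postnatal aorta keeps progenitors able to form both macrophages and endothelium. The second library of the series, which holds the tag reads, was not analysed here.

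Class II molecules display fragments of swallowed proteins to CD4+ T cells. An alpha and a beta chain pair in the endoplasmic reticulum around the invariant chain, which guides them to the endosome and is there cut down to a short fragment, and DM then swaps that fragment for a peptide. Dendritic cells, B cells and many tissue macrophages carry class II, and in vessel walls macrophages with low Lyve1 and high class II are known beside Lyve1-high macrophages with low class II. Transcription depends on CIITA, a coactivator that does not bind DNA itself and is drawn to factors seated on a shared promoter module, the X and Y boxes.

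That module can be read in the promoters of members measured here, and the stretches that hold it are printed because their genes varied together in the cells described next. RefSeq promoters (GRCm38.p6, from 250 bases before to 50 after the start of transcription) were on hand for 4 of the 7 genes. They were searched on both strands for GNAACT, which is part of the X box, followed after 20 to 30 bases by ATTGG, the core of the Y box. The motif was written down after the sequences had been looked at. Capitals mark the letters matched, and both sequences run 5′ to 3′ on the strand of their gene. The H2-Aa stretch lies at chr17:34287857-34287914 on the minus strand, with its match beginning 81 bases before the start site, and the H2-Eb1 stretch lies at chr17:34305766-34305822 on the plus strand, with its match beginning 91 bases before it.
H2-Aa: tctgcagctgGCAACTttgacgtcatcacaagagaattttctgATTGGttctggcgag
H2-Eb1: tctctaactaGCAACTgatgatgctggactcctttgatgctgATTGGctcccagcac
The gap between the 2 boxes was 27 bases in H2-Aa and 26 bases in H2-Eb1. H2-DMb1 also had 1 match, with a gap of 27 bases, beginning 94 bases before the RefSeq start. In the GENCODE annotation the gene begins earlier, at 34153072, so this match lies inside it. It overlaps an annotated untranslated region there, and its stretch is not printed. Neither of the 2 RefSeq promoter windows of H2-DMa held these letters in this order. The full motif occurred in 184 of 32851 promoters (0.560%), while GNAACT alone occurred in 42.8% and ATTGG alone in 37.4%. These matches describe letters in a window and do not show binding.

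In the GENCODE M21 annotation (GRCm38), 5 of the genes lie in the MHC on chromosome 17. They are H2-DMa (34119541 to 34139101, plus strand), H2-DMb1 (34153072 to 34160230, plus), H2-Ab1 (34257689 to 34269419, plus), H2-Aa (34282744 to 34287823, minus) and H2-Eb1 (34305867 to 34316674, plus). Ciita lies on chromosome 16 (10480059 to 10528418, plus strand) and Cd74 on chromosome 18. Whether the counting used strand is not given in the sources used here. H2-Eb1 overlaps the antisense gene Gm20513, H2-DMa overlaps Brd2 and 2 further gene models, and Ciita overlaps Dexi, so reads of these pairs may not be fully told apart. H2-DMb1 has a close paralog, H2-DMb2, at 34143307 to 34151555. A UMI is 1 captured RNA molecule read at its 3′ end. Levels below are counts per 1000000 gene UMIs (CPM), summed over cells that were each thinned at random to 5500 UMIs. They are compared for 1 gene between cells, and not ranked between genes.

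After removal of poor barcodes and called doublets 29285 cells remained, with a median of 12485 UMIs (1001 to 243243). Clusters were rebuilt without the 7 genes and without the other listed genes, since the authors' own cell annotation was not used here, and any departure from the published cell types may lie in this rebuilding. The label of the library speaks of macrophage colonies, yet the macrophage-like cluster held 2530 cells (8.64%, 95% interval 8.32% to 8.97%), while 13982 (47.7%) were mast cell-like and 5107 (17.4%) fibroblast-like. A further 7543 (25.8%) expressed mast cell markers and stayed unnamed. The macrophage-like cluster passed 8 of 9 macrophage markers, among them Csf1r at 569 CPM, against 2.45 in mast cell-like and 8.13 in fibroblast-like cells. The matrix also carried 3 tags named Macrophages, Cafum and Matrigel, and the labels do not say what these are. The Macrophages tag stood alone on 73.6% of macrophage-like, the Cafum tag on 73.4% of mast cell-like and the Matrigel tag on 49.1% of fibroblast-like cells. Xist, which female cells transcribe, was at 362 CPM in macrophage-like, 505 in mast cell-like and 715 in fibroblast-like cells, which goes against the male sex in the labels and leaves the animals behind these cells uncertain. Cells of 1 library are not replicates, so no test was made. All intervals are 95% and cover counting error only, not variation between cells, cultures or animals.

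Class II transcripts were concentrated in the macrophage-like cells. Over the 1977 of them deep enough to be thinned, the 7 genes summed to 14968 CPM (14896 to 15041), which was 171-fold the 87.4 CPM (85.3 to 89.6) of 13081 mast cell-like cells and 119-fold the 126 CPM (121 to 130) of 4919 fibroblast-like cells. At least 1 class II UMI was found in 94.6% of macrophage-like cells. Among genes with a mean of at least 20 CPM over both classes compared, 7.33% were 10-fold or more higher in macrophage-like than in mast cell-like cells, and 4.51% than in fibroblast-like cells. The members passed that fold in 6 of 7 cases against mast cell-like cells, where H2-DMb1 stopped at 9.66-fold (8.99 to 10.4), and in 7 of 7 against fibroblast-like cells. All 7 were below 20 CPM in mast cell-like cells, as were H2-Eb1, H2-DMa, H2-DMb1 and Ciita in fibroblast-like cells. There they met the floor only through their macrophage-like level, so these counts restate the levels and add no separate evidence.

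Among the chains, H2-Aa, which encodes the alpha chain of the I-A molecule, stood at 3210 CPM in macrophage-like cells, at 17.2 in mast cell-like and at 23.5 in fibroblast-like cells. Its UMIs were found in 86.5% of macrophage-like cells and in 8.60% and 8.29% of the other two classes at the same depth. H2-Ab1, the gene of the beta chain that pairs with it, stood at 2464, 17.1 and 40.7 CPM in the same order and was detected in 84.8%, 8.80% and 16.6% of cells. H2-Eb1, which encodes the beta chain of I-E, stood at 2493, 11.7 and 16.6 CPM and was detected in 81.5%, 6.02% and 5.88%. C57BL/6 mice are known to make no I-E at the cell surface because their alpha chain gene for it is defective, and that gene was not analysed here. All 3 chain genes were thus far above their level in the other classes, and H2-Ab1 was the chain with the smallest gap to fibroblast-like cells.

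Cd74, whose product is the invariant chain, was at 6367 CPM (6320 to 6415) in macrophage-like cells, at 16.3 in mast cell-like and at 29.9 in fibroblast-like cells. It was found in 91.1%, 8.10% and 7.66% of cells. H2-DMa was at 223, 7.59 and 7.17 CPM, and H2-DMb1 at 169, 17.5 and 7.06 CPM. These encode the alpha and beta chain of DM, and both were closer to their macrophage-like level in the other classes than were the chains of I-A. Ciita was the sparsest member, at 42.9 CPM (39.1 to 47.0) in macrophage-like cells, where 18.5% of cells held a UMI, at 0.167 (0.0862 to 0.291) in mast cell-like and at 0.665 (0.394 to 1.05) in fibroblast-like cells.

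**Figure D1:**
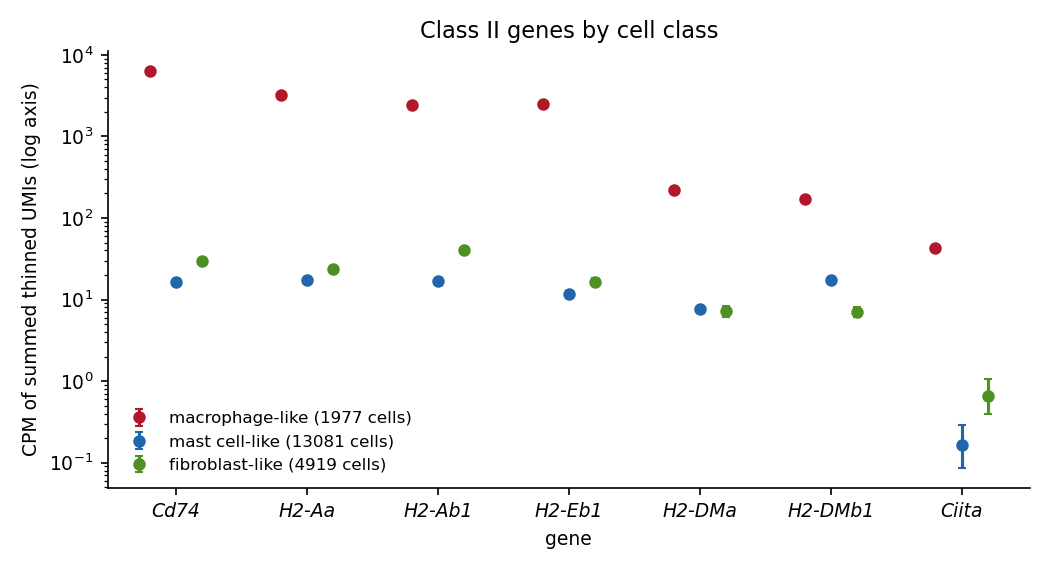
Each point is the level of 1 class II gene (CPM of summed UMIs of cells thinned to 5500 UMIs, log axis) in macrophage-like, mast cell-like or fibroblast-like cells, with bars for the 95% Poisson interval. All 7 genes are highest in macrophage-like cells, and the H2-DMb1 points lie closest together, at 169, 17.5 and 7.06 CPM.

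RNA set free by broken cells reaches every droplet, so the low levels outside macrophages were read beside those of macrophage marker genes in the same cells. In mast cell-like cells the 9 macrophage markers stood at 0.289% to 1.38% of their macrophage-like level (median 0.477%). Cd74 (0.256%), H2-Eb1 (0.468%), H2-Aa (0.534%), H2-Ab1 (0.692%) and Ciita (0.388%, 0.199% to 0.685%) lay at or close to that range. H2-DMa reached 3.40% (3.09% to 3.73%) and H2-DMb1 10.3% (9.63% to 11.1%), both above all 9 markers. The unnamed cells with mast cell markers gave 12.8% (11.8% to 14.0%) for H2-DMb1 and 3.07% (2.69% to 3.49%) for H2-DMa. Mast cell-like cells that carried the Cafum tag alone, 9753 in number, kept H2-DMb1 at 17.4 CPM (16.3 to 18.5), while Cd74 was at 14.4 there.

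In mast cell-like cells H2-DMb1 UMIs were found in 9.54% (7.84% to 11.5%) of the 1059 cells with a Cd74 UMI and in 8.95% (8.45% to 9.47%) of those without. H2-Ab1 was alike in this, at 9.54% and 8.73% (8.24% to 9.25%), and H2-DMa was at 4.44% and 3.98%. H2-Aa was found in 12.5% (10.5% to 14.6%) of the cells with and 8.26% (7.77% to 8.77%) of the cells without Cd74, and H2-Eb1 in 8.97% (7.32% to 10.9%) and 5.76% (5.35% to 6.19%). H2-Ob, which encodes the beta chain of the DM inhibitor DO, was low in both classes, at 3.61 CPM (3.19 to 4.08) in mast cell-like and 6.62 (5.18 to 8.34) in macrophage-like cells. H2-DMb2, the paralog of H2-DMb1, was at 0.0278 CPM in mast cell-like cells, from 2 UMIs, and at 4.60 in macrophage-like cells. H2-Eb2 was found in 0 of 13081 mast cell-like cells, which allows a share of cells with a UMI of up to 0.0229%, and stood at 7.63 CPM in macrophage-like cells.

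In fibroblast-like cells H2-Ab1 (1.65%, 1.55% to 1.75%), H2-DMa (3.21%) and H2-DMb1 (4.18%) were closest to their macrophage-like level. Ciita, from 18 UMIs, was next to H2-Ab1 at 1.55% (0.910% to 2.48%), and H2-Aa was at 0.731%, H2-Eb1 at 0.664% and Cd74 at 0.470%. The 9 macrophage markers had a median of 0.732% there and ran from 0.399% to 12.2%. That top value is Mertk, and the other 8 reached at most 2.53% (2.12% to 2.99%, Cd68), so H2-DMb1 lay above 8 of the 9 markers. H2-DMa was also above those 8, though its interval (2.76% to 3.72%) overlaps that of Cd68. The fibroblast-like sum differed with the tags of the cells taken. It was 100.2 CPM (95.9 to 104.6) with only the cells of more than 1 tag left out, an alternative chosen after seeing the data, and 81.0 (76.3 to 86.1) in the 2396 cells with the Matrigel tag alone, which also drops cells with another tag or none, while keeping called doublets gave 276 CPM (271 to 282). With that tag alone H2-Ab1 stood at 34.4 CPM (31.3 to 37.7), while Cd74 was at 12.1 (10.3 to 14.2), H2-Aa at 12.8 and H2-Eb1 at 8.42. Cells with more than 1 tag had 63.6 CPM of Cd74, 43.1 of H2-Aa, 30.7 of H2-Eb1 and 46.0 of H2-Ab1, so of these 4 genes H2-Ab1 differed least between them. H2-Ab1 UMIs were found in 28.4% (23.9% to 33.2%) of fibroblast-like cells with and 15.7% (14.6% to 16.8%) of those without a Cd74 UMI. For the macrophage complement gene C1qa these shares were 21.0% (17.0% to 25.4%) and 5.15% (4.53% to 5.84%).

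**Figure D2:**
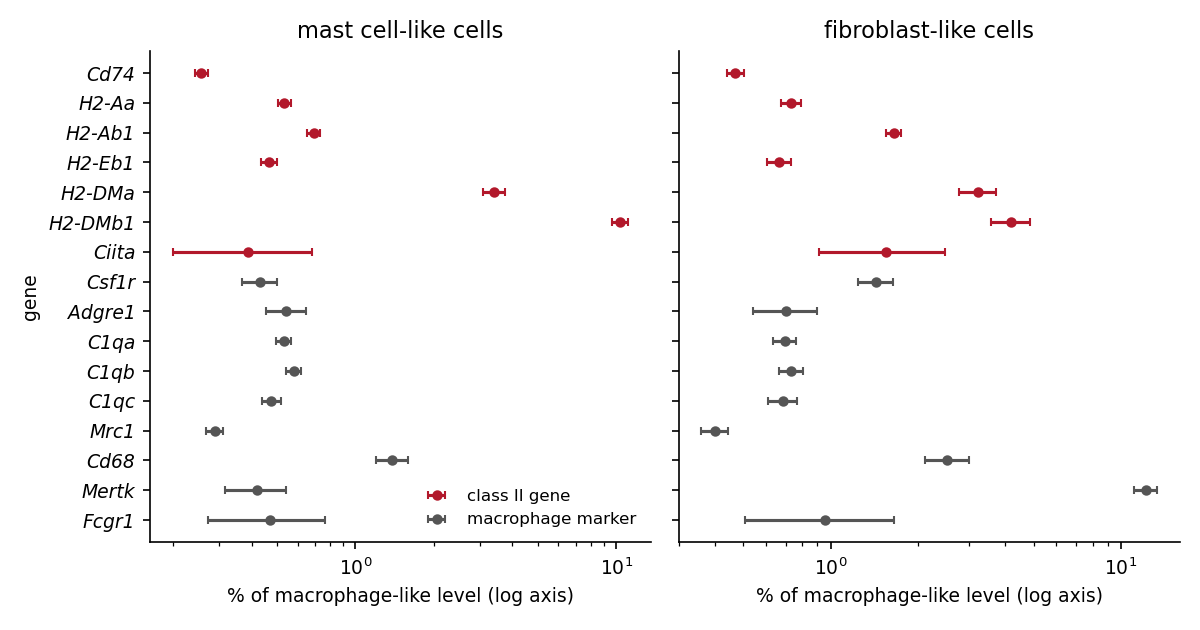
Points give the level of each class II gene and each macrophage marker in mast cell-like (left) and fibroblast-like cells (right) as a percentage of its level in macrophage-like cells (log axes), with 95% intervals from counting error. On the left H2-DMa (3.40%) and H2-DMb1 (10.3%) stand to the right of every marker. On the right H2-Ab1 (1.65%) stands apart from H2-Aa (0.731%) and Cd74 (0.470%) but within the range of the markers, below Cd68 (2.53%) and Mertk (12.2%).

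Single macrophage-like cells differed widely in class II. Of 5500 UMIs, a median of 64 came from the 7 genes, with a 10th percentile of 2, quartiles of 17 and 130, a 90th percentile of 193 and a maximum of 343. No class II UMI was seen in 106 cells (5.36%), and the top 10% of cells held 28.8% of all class II UMIs. Most cells held several members at once. At least 3 of the 7 genes were found in 1682 cells (85.1%, 83.4% to 86.6%) and at least 5 in 1292 (65.4%, 63.2% to 67.5%), while the share with 3 or more was 0.917% in mast cell-like and 1.81% in fibroblast-like cells. All 7 were found in 212 cells (10.7%), a share that the sparse Ciita limits.

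The members varied from cell to cell together. Over 1977 cells, the log2(UMIs + 1) of each gene was set against that of the other 6 summed, and Pearson's r was 0.948 for Cd74, 0.937 for H2-Aa, 0.930 for H2-Ab1 and 0.913 for H2-Eb1. It was lower for the sparser H2-DMa (0.577), H2-DMb1 (0.533) and Ciita (0.317). These are descriptions over cells of 1 library that share their total of UMIs.

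Cells of the class were then split by Ccr2, the chemokine receptor that recruits monocytes and marks macrophages lately derived from them. A Ccr2 UMI was found in 449 of 1977 macrophage-like cells (22.7%). At the same depth the share was 0.925% in mast cell-like and 0.508% in fibroblast-like cells. Class II summed to 23750 CPM (23558 to 23943) in cells with a Ccr2 UMI and to 12388 (12313 to 12463) in the 1528 without, a ratio of 1.92 (1.90 to 1.94). All 7 members were 1.5-fold or more higher with Ccr2, while 2.92% of the 5780 genes of at least 20 CPM were, and the median ratio of all those genes was 0.965. Among the chains, H2-Aa was at 4964 against 2694 CPM, H2-Ab1 at 4050 against 1997 and H2-Eb1 at 4141 against 2009, with ratios of 1.84, 2.03 and 2.06. Cd74 was at 9865 against 5339 CPM (1.85). The DM genes gave 362 against 182 CPM for H2-DMa (1.99, 1.83 to 2.16) and 298 against 131 for H2-DMb1 (2.27, 2.07 to 2.50). Ciita, at 69.6 against 35.1 CPM, had a ratio of 1.98 (1.63 to 2.40); its interval spans the ratios of the other 6 genes.

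Lyve1, a hyaluronan receptor of long-resident macrophages in vessel walls, split the same cells the other way. A Lyve1 UMI was found in 1208 cells (61.1%), while the share was 0.650% in mast cell-like and 2.03% in fibroblast-like cells. Class II summed to 10742 CPM (10663 to 10821) with and 21607 (21467 to 21748) without Lyve1, a ratio of 0.497 (0.492 to 0.502). All 7 members were 1.5-fold or more lower with Lyve1, against 4.5% of all genes at that fold, whose median ratio was 1.00. H2-Aa was at 2335 against 4583 CPM (0.510), H2-Ab1 at 1720 against 3631 (0.474) and H2-Eb1 at 1617 against 3869 (0.418). Cd74 was at 4767 against 8881 CPM (0.537). H2-DMa was at 167 against 311 CPM (0.536), H2-DMb1 at 108 against 265 (0.406) and Ciita at 27.5 against 67.1 (0.410, 0.339 to 0.496).

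**Figure D3:**
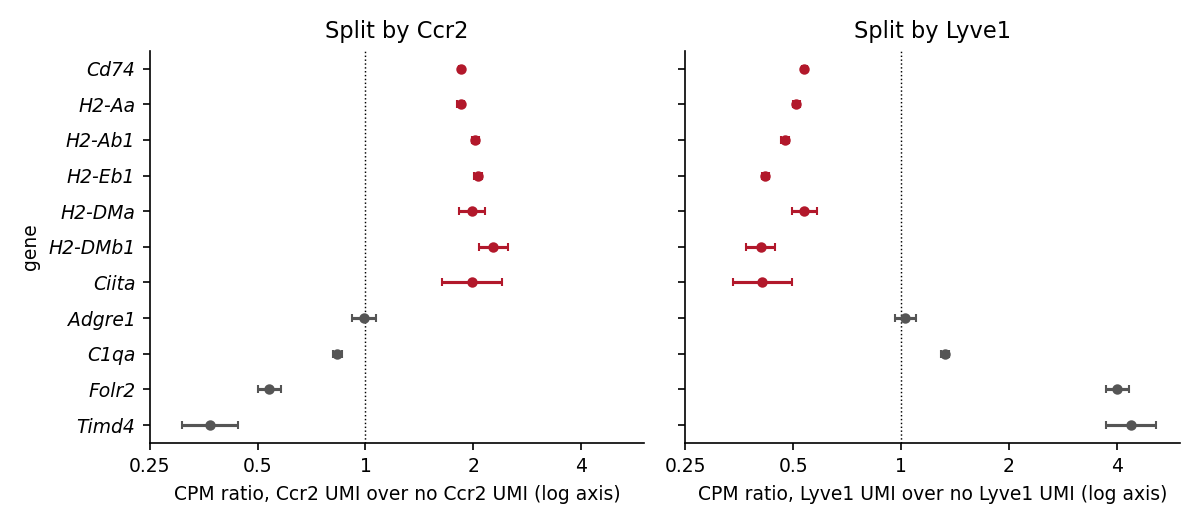
Points are the ratio of CPM between macrophage-like cells with and without a UMI of Ccr2 (left) or Lyve1 (right), on log axes, with 95% intervals from counting error. All 7 class II genes lie right of 1 on the left and left of 1 on the right, C1qa (0.834 and 1.33), Folr2 and Timd4 lie opposite to class II, and Adgre1 lies at 1 (0.991 and 1.03).

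Both genes together ordered the cells more widely than either alone. Class II was at 27411 CPM in the 258 cells with Ccr2 only, 18805 in the 191 with both, 18677 in the 511 with neither and 9228 in the 1017 with Lyve1 only, and the medians per cell were 149, 94, 86 and 30 UMIs. The first group was 2.97-fold the last. Ciita followed the same order at its ends, with 79.6 CPM for Ccr2 only and 22.2 for Lyve1 only. Within cells without Lyve1 the Ccr2 ratio of the class II sum was 1.47 (1.45 to 1.49), and within cells with Lyve1 it was 2.04 (2.00 to 2.07). The Lyve1 ratio was 0.494 within cells without and 0.686 within cells with Ccr2. Cells without any class II UMI numbered 0 of the 258 with Ccr2 only and 93 of the 1017 (9.14%) with Lyve1 only. The groups with both and with neither, close in class II, differed in other ways. Mast cell markers summed to 10234 and 21864 CPM there, and 23.6% and 37.0% of their cells had more than 1 tag.

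**Figure D4:**
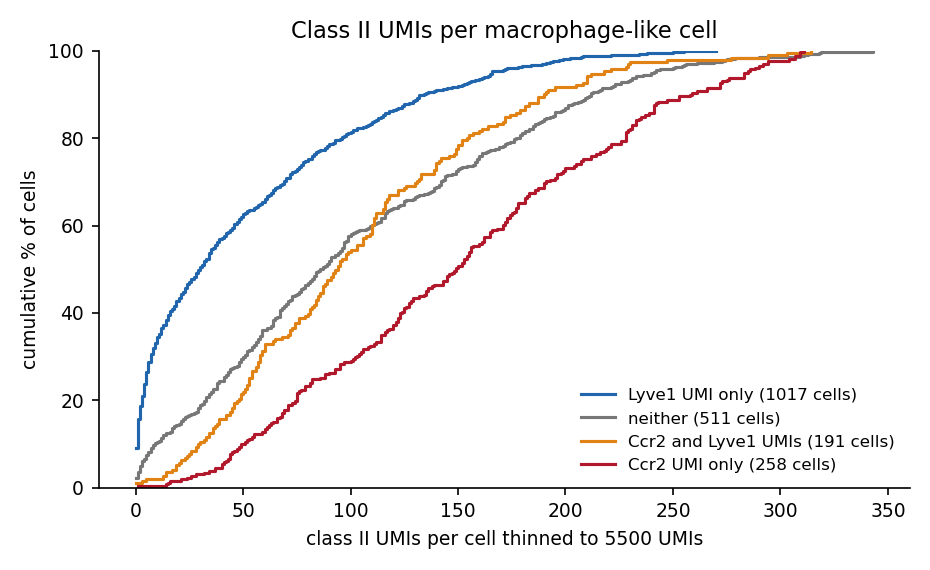
Each line is the cumulative percentage of macrophage-like cells (y) with up to a given number of class II UMIs out of 5500 (x), for cells split by Ccr2 and Lyve1 UMIs. The line for Lyve1 only rises first (median 30), those for neither (86) and both (94) run close together, and the line for Ccr2 only rises last (149).

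The number of UMIs of each splitting gene followed the same order. With 0, 1, 2 and 3 or more Ccr2 UMIs, class II stood at 12388, 20874, 23490 and 25723 CPM. With 0, 1, 2 to 3, 4 to 7 and 8 or more Lyve1 UMIs it stood at 21607, 14791, 10905, 10145 and 6215 CPM. The intervals of neighbouring steps did not overlap, but they leave out the spread between cells and so cannot show that the steps differ beyond it. The largest step by Ccr2 lay between 0 and 1 UMI, and cells with 8 or more Lyve1 UMIs still held 9 class II UMIs in the median. Summed mast cell markers fell along the same steps, at 16763, 15000, 14720 and 8644 CPM by Ccr2. By Lyve1 they stood at 18941, 17921, 17305, 11022 and 5292 CPM. The part of this RNA in the class II steps was not tested.

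**Figure D5:**
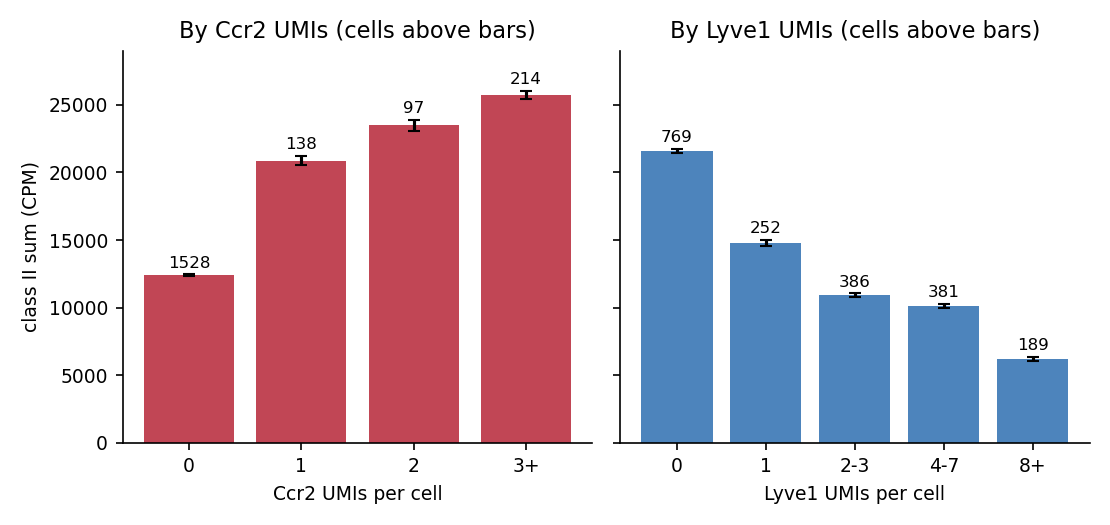
Bars give the class II sum (CPM, axis from 0) in macrophage-like cells grouped by their number of Ccr2 (left) or Lyve1 UMIs (right) out of 5500, with 95% Poisson intervals and the number of cells above each bar. The sum is higher in each step from 12388 to 25723 CPM by Ccr2 and lower in each step from 21607 to 6215 CPM by Lyve1.

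RNA of other cell types differed between these groups too. The 7 mast cell markers summed to 11910 CPM with and 16763 without Ccr2, and to 13572 with and 18941 without Lyve1. Fibroblast markers summed to 242 CPM with and 286 without Ccr2. Wider gaps were seen for RNA held by few cells. The 6 erythroid markers, of which the globin gene Hbb-bs was the largest, summed to 852 CPM with and 2076 without Ccr2 and to 2377 with and 888 without Lyve1, from 216 of the 1977 cells. The neutrophil genes S100a8 (5.26 against 94.0 CPM by Ccr2, 9.03 against 176 by Lyve1) and S100a9 (3.64 against 113, 13.2 against 205) had UMIs in 16 and 20 cells. In cells with no S100a8 or S100a9 UMI the class II ratios were 1.91 by Ccr2 and 0.494 by Lyve1, and in cells with no haemoglobin UMI they were 1.89 and 0.507, both sets chosen after seeing the data. The 5 monocyte markers other than Ccr2 summed to 79.4 CPM with and 33.4 without Ccr2 and to 33.6 with and 60.1 without Lyve1, and their part in the class II ratios was not tested. When cells were ordered by their mast cell marker UMIs and cut into 3 near-equal groups (medians 11, 19 and 213 UMIs), class II stood at 18463, 19202 and 7230 CPM. Ccr2 (170, 152 and 60.2 CPM) and Lyve1 (584, 601 and 283 CPM) were also lowest in the last of these groups. Within those groups the Ccr2 ratio of class II was 1.82, 1.69 and 1.79 and the Lyve1 ratio 0.443, 0.451 and 0.477. These Ccr2 ratios lay below the 1.92 over all cells, and the part of mast cell RNA in them was not tested. Cells with more than 1 tag had 8169 CPM of class II and those with the Macrophages tag alone 17825. The macrophage markers C1qa (1495 against 3086 CPM), Csf1r (335 against 672) and Mrc1 (1845 against 3913) were lower there too. This gap was thus not particular to class II. With the Macrophages tag alone the ratios were 1.80 and 0.464. Ordered by UMIs before thinning, the 3 groups had 20046, 14683 and 10177 CPM, with Ccr2 ratios of 1.83, 2.13 and 2.13 and Lyve1 ratios of 0.472, 0.443 and 0.617.

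Markers of other cells that carry class II were also followed. Of the 10 dendritic cell markers, Cd209a (154 CPM) and Batf3 (46.4) were the most frequent in macrophage-like cells, and the other 8 stood at 7.73 or less, with Flt3 at 0.736 and Xcr1 and Clec9a at 0.368. The list summed to 276 CPM with and 208 without Ccr2, and to 252 with and 179 without Lyve1. The second of these rests on Cd209a (190 against 96.2 CPM). Without Cd209a the list followed class II, at 107 against 59.4 CPM by Ccr2 and 62.3 against 82.5 by Lyve1. Batf3 (43.0 against 51.5 CPM by Lyve1), Itgax (4.52 against 12.8) and Dpp4 (1.20 against 6.62) went that way, as did Flt3 by Ccr2 (8 UMIs against 0). Zbtb46 went the other way, at 4.05 against 7.85 CPM by Ccr2 and 7.83 against 5.67 by Lyve1. So did Fscn1, at 0.405 against 2.02 CPM by Ccr2 and 1.81 against 1.42 by Lyve1. Ccr7 did so by Lyve1 only, and only in CPM (3.16 against 1.89). It was found in 0.248% of cells with and 0.650% of cells without Lyve1, so its share of cells went the way of class II. Xcr1 went the other way by Ccr2 only (0 UMIs against 4). Flt3, Fscn1, Ccr7 and Xcr1 rest on 8, 18, 29 and 4 UMIs over all macrophage-like cells, so their directions are uncertain. The 6 B cell markers summed to 17.0 CPM with and 6.90 without Ccr2, and to 8.28 with and 10.6 without Lyve1. The 42 UMIs with Ccr2 held 22 of Cd79b and 10 of Igkc, and only 2 macrophage-like cells had Igkc UMIs. In the 997 macrophage-like cells with no UMI of either list, the Ccr2 ratio was 2.12 (2.09 to 2.15) and the Lyve1 ratio 0.423 (0.417 to 0.430). The T cell-like cluster, with 25 thinned cells, had 1724 CPM of class II beside 756 CPM of B cell markers, whose part in it was not tested.

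Other genes of antigen presentation gave ratios nearer 1 or the opposite way. Of 9 genes that cut, trim or turn over class II and its cargo, 0 were past 1.5-fold by Ccr2 (median 0.821). Ctss, the protease that removes the last of the invariant chain in macrophages and dendritic cells, had a ratio of 1.20 (1.14 to 1.27), the thiol reductase gene Ifi30 one of 1.13 and March1, whose product sends class II to the lysosome, one of 1.05. March8 (0.713) and Ctsl (0.716) were lowest. By Lyve1, 2 of the 9 were past the fold and higher, where class II was lower, namely Ctsl (1.75) and Ctsb (1.61), with a median of 1.28, while 7.27% of all genes were higher at that fold. Of 11 genes of factors that act at class II or related promoters, 8 reached 20 CPM and 0 were past the fold by either gene (medians 1.04 and 0.955). The 3 with the highest Ccr2 ratio were Irf4 (1.27), Spi1 (1.23) and Nfya (1.18), and Nfyb (0.828) and Nlrc5 (0.853), the class I counterpart of Ciita, were lowest. Of the 12 class I presentation genes, 0 were past the fold by either gene, and the medians were 1.04 and 0.963. Tap1, a peptide transporter subunit, had a Ccr2 ratio of 1.41 (1.05 to 1.87), Psmb8, an immunoproteasome subunit, 1.26 and H2-D1, a class I heavy chain, 1.14, while B2m (0.986) and Tapbp (0.930) were lowest.

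Interferon-gamma is the classical inducer of Ciita, and its pathway was mixed. Of 16 listed genes 15 were compared. By Ccr2 3 were past the fold and higher and 3 were past it and lower, where 2.92% and 4.53% of all genes were. Higher were the signalling kinase gene Jak2 (140 against 61.3 CPM, 2.29), the chemokine gene Cxcl10 (1.59) and Gbp2 (1.55), a GTPase gene of cell defence. The lowest were Iigp1 (0.448), a related GTPase gene, and Socs1 (0.612), a brake on the pathway, and Irgm1 (0.650) was the other gene past the fold. By Lyve1, 1 of 15 was past the fold and higher (Irgm1, 1.63) and 5 were past it and lower, where 7.27% and 4.5% of all genes were. Among those 5 were Cxcl9 (15.1 against 58.9 CPM, 0.256), Cxcl10 (0.416) and Jak2 (0.650). Of 13 genes of costimulation and contact with T cells, 8 were compared. By Ccr2 the inflammatory cytokine gene Il1b (2.42, 2.19 to 2.68) and the costimulatory ligand gene Cd80 (1.63, 1.39 to 1.92) were past the fold and higher, against 2.92% of all genes. Tnf (1.29) was next, while Cd40 (1.02) and Tgfb1 (1.04) were lowest. By Lyve1, Il1b (0.218) and Tnf (0.568) were past the fold and lower, against 4.5% of all genes. Of the 11 genes of the resident macrophage list, which includes Lyve1, 8 were past the fold and lower by Ccr2, with Timd4 (0.369) and Lyve1 (0.461) lowest and Mrc1 (0.745), Pf4 (0.690) and Maf (0.683) highest. By Lyve1 the other 10 were all past the fold and higher, against 7.27% of all genes, with a median of 2.56. The 9 macrophage markers together went opposite to class II, with a ratio of their sum of 0.829 by Ccr2 and 1.52 by Lyve1. Csf1r, the receptor that macrophages need to survive, had ratios of 0.773 and 1.72, C1qa 0.834 and 1.33, and Adgre1 0.991 and 1.03.

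The genes whose cell-to-cell pattern was most like that of class II were ranked over 1977 cells by Pearson's r of log2(UMIs + 1) with the sum of the members, among 5778 genes. After the abundant members came Cd52 (0.498), which encodes a small surface glycoprotein of leukocytes, then Tmem176b (0.401), Plbd1 (0.399), Clec4b1 (0.385), Tmsb4x (0.374), Tmem176a (0.373), Slamf7 (0.372), Mpeg1 (0.360), Gm20513 (0.348) and Aif1 (0.338). Gm20513 is the antisense neighbour that overlaps H2-Eb1, so it may share its reads. Cd52 was at 930 CPM in cells with Ccr2 only, 343 with both, 495 with neither and 83.1 with Lyve1 only. Ccr2 (0.326) was at rank 17 and Ciita (0.321) at rank 19. At the other end of the ranking stood Lyve1 (-0.412), the endothelin receptor gene Ednrb (-0.357) and the lectin gene Fcna (-0.329). All these genes share cells and depth with class II, and the values describe this library.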

How the data were processed

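The authors deposited raw UMI counts per gene and barcode, made with Cell Ranger 7.0.0 on mm10 per the submitters' processing notes, with no normalization. The annotation, intron counting and use of strand are not given in the sources used here. The matrix held 34813 barcodes, 32285 genes and 3 tags. Tags took 21.9% of UMIs and were left out of gene totals.

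Barcodes were kept with at least 500 genes, 1000 UMIs and at most 10% mitochondrial UMIs (33964). Scrublet in scanpy 1.11.5 called 4726 doublets (13.6%, where 27.9% were expected at 0.8% per 1000 barcodes), and 4679 were removed, so doublets remain. Cells were clustered (2000 variable genes, 30 components, 15 neighbours, Leiden resolution 0.5) without 186 listed genes, and named from marker lists, given at least 3 markers at 50 CPM and 4 times the lowest cluster. Each cell was thinned to 5500 UMIs, which left out 2340 shallower cells, 553 of them macrophage-like. A tag was called at 2 times its background (Cafum at 1.4).

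CPM carry exact Poisson intervals, shares exact Clopper-Pearson intervals and ratios exact conditional binomial intervals (95%). A floor of 3 counts was used for zeros. Genes of at least 20 CPM were compared at 1.5-fold, either way. The fold and interval steps were tested on simulated counts that had no variation between cells. Clustering, naming, doublet calls and tag calls were not tested in this way. Members and lists were chosen with earlier results of these data known. Genes named are the members, the 3 highest and 2 lowest of each list by Ccr2 ratio, the 10 most alike, and the splitting genes. Others named for their values (such as Cxcl9, Ctsb, Irgm1, the lowest correlations and the DM paralogs) were chosen after these were seen, as were the groups by UMI number, tag and depth and the sets without S100a8 or S100a9, haemoglobin or a further tag. The dendritic cell list without Cd209a was chosen in the same way.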

Additional observations from a re-analysis of the deposited data

How the results depend on the processing

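No class II ratio changed direction under any alternative run, and resolutions 0.25 and 1 and clustering with the listed genes left every sum, share and ratio of class II within its counting error. The macrophage-like class II sum was 11714 CPM with called doublets kept, 14190 at no more than 5% mitochondrial UMIs, 16174 and 12609 when thinned to 3000 and 8000 UMIs, 13635 without thinning, 17825 with the Macrophages tag alone, 18939 in cells at or below the median of mast cell marker UMIs and 13044 without dendritic or B cell marker UMIs. The Ccr2 ratio was 2.10 with doublets, 2.09 at 5% mitochondrial UMIs, 1.82 and 2.04 at 3000 and 8000 UMIs, 1.81 without thinning, 1.80 with the tag alone, 1.79 at low mast cell RNA, 2.12 without dendritic or B cell UMIs and 2.02 when split at 2 UMIs. In the same order the Lyve1 ratio was 0.619, 0.516, 0.513, 0.482, 0.473, 0.464, 0.449, 0.423 and 0.448. The share of macrophage-like cells with 3 or more members was 82.3% with doublets, 81.0% and 87.4% at 3000 and 8000 UMIs, 88.2% without thinning, 87.5% with the tag alone, 87.8% at low mast cell RNA, 79.9% without dendritic or B cell UMIs and 78.2% when a gene counted from 2 UMIs. Mast cell-like cells had 90.6 CPM with doublets, 82.8 at 8000 UMIs, 83.6 without thinning and 82.2 with the Cafum tag alone, and fibroblast-like cells 276 with doublets and 81.0 with the Matrigel tag alone. Genes past 1.5-fold numbered 431 by Ccr2 and 680 by Lyve1. At 2-fold there were 128 and 237, and at a floor of 50 CPM 209 and 385, because fewer genes qualify. Among settings chosen after seeing the data, leaving out cells with more than 1 tag gave class II sums of 17736, 84.6 and 100.2 CPM in macrophage-like, mast cell-like and fibroblast-like cells, ratios of 1.81 and 0.470 and a share of 87.3%. Leaving out cells with a haemoglobin UMI gave 14779 CPM and ratios of 1.89 and 0.507, and leaving out those with S100a8 or S100a9 UMIs kept all 4 macrophage-like values within their counting error. Of 196 values of single members under alternatives, 112 stayed within their counting error, 84 moved and 0 reversed. The cause of these shifts was not tested.

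No paired analysis was possible because the series gave 1 library with gene counts. No replicate bears on any value, and free RNA, which was not measured, and remaining doublets limit what low levels outside macrophages can show. Ciita, found in 18.5% of macrophage-like cells, is limited by depth.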
